A study of Homo sapiens with 6 samples.

Results

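Inflammatory chemokine genes and the feedback genes of NF-kappaB were examined in Calu-3 cells, an established line grown from a human lung adenocarcinoma and often used as a model of airway epithelium. The 8 genes are CXCL8 (IL-8), CXCL1, CXCL2, CXCL3, CXCL5, CCL20, NFKBIA and TNFAIP3. They were taken as 5 windows of the genome build hg19: chr4:74570001-74650000 for CXCL8, chr4:74690001-75000000 for the cluster of CXCL1, CXCL2, CXCL3 and CXCL5, chr2:228630001-228730000 for CCL20, chr14:35820001-35920000 for NFKBIA and chr6:138140001-138260000 for TNFAIP3. Every called interval that shared at least 1 bp with a window was kept, which gave 64 intervals of 73341 in all. The study mapped EHF, an ETS transcription factor expressed in epithelia, by chromatin immunoprecipitation and sequencing in 2 libraries, and the histone modifications H3K27ac and H3K4me1 in 1 library each. EHF peaks were called by the authors against Input 1, and regions of the marks against Input 2. All libraries came from cells in low-glucose medium with serum, with no genetic change or treatment named, so no inflammatory stimulus was compared. The intervals were 1 of 1537 peaks of EHF replicate 1, 4 of 5216 peaks of EHF replicate 2, 38 of 34638 H3K27ac regions and 21 of 31950 H3K4me1 regions.

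NF-kappaB is a family of transcription factors that inhibitor proteins hold in the cytoplasm until a signal such as TNF, IL-1 or a microbial product has the inhibitor degraded. In airway epithelium its activation raises chemokine genes that call in white blood cells. CXCL8, CXCL1, CXCL2, CXCL3 and CXCL5 encode CXC chemokines that attract neutrophils through the receptor CXCR2, and CXCL8 also acts through CXCR1. CCL20 encodes the ligand of CCR6, which draws in dendritic cells and subsets of lymphocytes. NFKBIA encodes IkappaB-alpha, the inhibitor that is made again under NF-kappaB control, and TNFAIP3 encodes A20, a ubiquitin-editing enzyme that dampens signalling upstream of NF-kappaB. H3K27ac is found at active promoters and enhancers, and H3K4me1 is typical of enhancers and of the flanks of active promoters.

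The promoters are shown for the NF-kappaB motif, which these genes are known for and which therefore is no finding about them. RefSeq promoters of build GRCh38.p14 were found for all 8 genes, from 250 bases before to 50 after the transcription start. The stretches below end at the base before the start, run 5′ to 3′ on the gene's own strand, and carry the NF-kappaB motif GGNNNTTCC, searched on both strands, in capitals. The positions are those of GRCh38.p14 and cannot be set against the hg19 intervals given later. The first group holds the CXC chemokines, with CXCL8 at chr4:73740419-73740568 and CXCL1 at chr4:73869243-73869392 on the plus strand, and CXCL2 at chr4:74099196-74099345, CXCL3 at chr4:74038690-74038839 and CXCL5 at chr4:73998678-73998827 on the minus strand.
CXCL8: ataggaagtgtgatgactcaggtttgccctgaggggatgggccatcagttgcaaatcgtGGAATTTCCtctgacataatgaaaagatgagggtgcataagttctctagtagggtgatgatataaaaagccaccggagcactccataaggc
CXCL1: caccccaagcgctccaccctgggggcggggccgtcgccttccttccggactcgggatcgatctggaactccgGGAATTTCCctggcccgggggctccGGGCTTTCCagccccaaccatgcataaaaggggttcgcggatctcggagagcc
CXCL2: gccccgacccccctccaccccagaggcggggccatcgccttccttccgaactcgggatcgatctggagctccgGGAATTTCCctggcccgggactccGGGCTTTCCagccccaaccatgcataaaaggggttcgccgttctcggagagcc
CXCL3: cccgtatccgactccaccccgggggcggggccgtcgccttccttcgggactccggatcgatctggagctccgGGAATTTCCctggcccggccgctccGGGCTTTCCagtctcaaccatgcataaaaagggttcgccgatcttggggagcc
CXCL5: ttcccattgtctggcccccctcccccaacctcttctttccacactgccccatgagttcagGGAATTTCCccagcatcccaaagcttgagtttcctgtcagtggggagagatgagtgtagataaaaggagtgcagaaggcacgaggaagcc
The second group holds CCL20 at chr2:227813642-227813841 (plus strand), NFKBIA at chr14:35404750-35404849 (minus strand) and TNFAIP3 at chr6:137867159-137867258 (plus strand).
CCL20: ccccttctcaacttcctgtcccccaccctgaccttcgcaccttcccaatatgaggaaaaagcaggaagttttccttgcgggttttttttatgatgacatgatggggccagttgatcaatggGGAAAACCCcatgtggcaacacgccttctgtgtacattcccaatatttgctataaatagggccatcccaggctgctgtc
NFKBIA: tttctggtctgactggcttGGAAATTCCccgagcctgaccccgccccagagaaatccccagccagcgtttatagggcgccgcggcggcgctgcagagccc
TNFAIP3: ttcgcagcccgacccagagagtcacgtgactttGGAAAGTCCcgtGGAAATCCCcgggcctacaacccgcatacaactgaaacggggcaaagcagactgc

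All 8 promoters held the NF-kappaB motif, which 20.1% of the 35116 promoters in the table hold. The genes were chosen as NF-kappaB chemokine and feedback genes, and the promoters of CXCL1, CXCL2 and CXCL3 are partly copies of each other. This count is therefore a description. The letters GGAATTTCC stood 91 bases before the start in CXCL8, 90 in CXCL5, 78 in CXCL1 and CXCL3, and 77 in CXCL2. In CXCL1, CXCL2 and CXCL3 a further match, GGGCTTTCC, lay 53 bases before the start. NFKBIA carried GGAAATTCC at 81 bases and GGACTTTCC at 242 bases, and the match at 242 lies beyond the stretch shown. TNFAIP3 carried 2 matches, at 67 and 55 bases, and CCL20 carried 1, at 79 bases. At least 2 matches were found in 5 of the 8 promoters and in 2.54% of all promoters.

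ETS factors recognise a core of GGAA. Every match of GGNNNTTCC holds this core by its letters, since TTCC reads GGAA on the opposite strand. The longer ETS motif CAGGAAG, a form that EHF is known to bind, was found in CCL20 alone among the 8 promoters, at 189 and 139 bases before the start. It is held by 12.7% of all promoters. The ETS motif CCGGAAG was found in CXCL1, 109 bases before the start, and is held by 10.3% of all promoters. Neither overlapped an NF-kappaB match. The AP-1 motif TGANTCA was found in CXCL8, at 137 bases (7.71% of all promoters). The TATA box TATAAA was found in CXCL8 at 31 bases, CCL20 at 29 bases and, on the reverse strand, NFKBIA at 33 bases (11.5% of all promoters). These are matches of letters in one window, not measured binding sites.

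**Figure D1:**
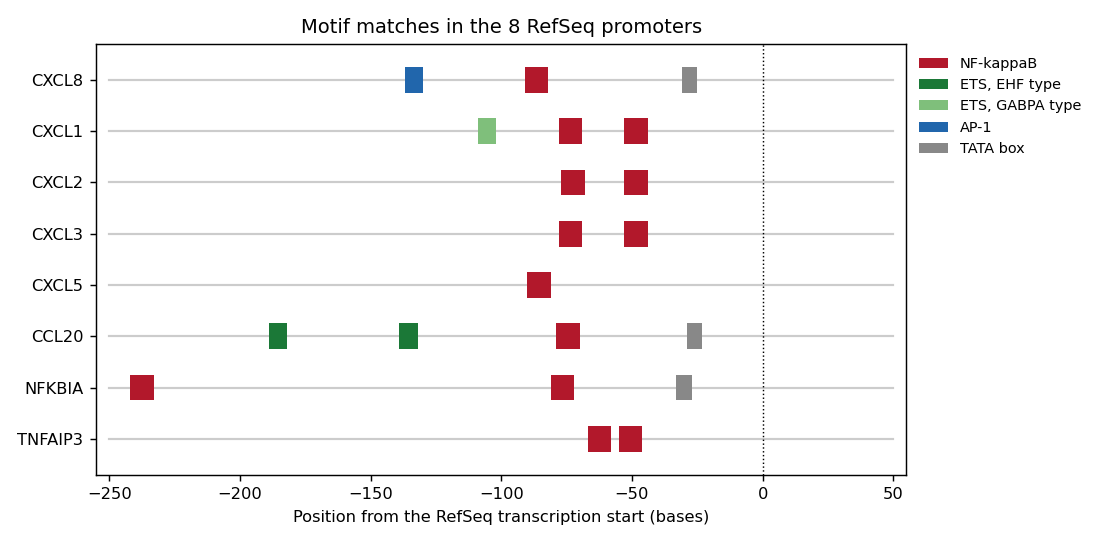
Each line is a RefSeq promoter of 1 of the 8 genes, plotted by position from the transcription start in bases, and each coloured block is a match of a motif on either strand. NF-kappaB matches (red) lie between 91 and 45 bases before the start in all 8 genes, with a further one at 242 bases in NFKBIA, and the EHF-type ETS matches (dark green) are in CCL20.

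The promoters of CXCL1, CXCL2 and CXCL3 are partly copies of each other, and this bears on counting. Aligned end to end over the 300 bases, the CXCL1 and CXCL3 promoters were 82.5% identical, CXCL2 and CXCL3 73.8%, and CXCL1 and CXCL2 71.9%. CXCL5 was 54.1% to 55.4% identical to these 3, and CXCL8 45.2% to 48.0% identical to the other 4. The longest stretch without a mismatch was 42 bases between CXCL1 and CXCL2 and 37 bases between CXCL2 and CXCL3. How the authors placed reads that fit several positions is not given in the sources used here, so tags at such stretches are uncertain.

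Per the file headers, the EHF libraries held 10176290 tags (replicate 1) and 8418631 tags (replicate 2), the H3K27ac library 21426939 and the H3K4me1 library 12989646. Called intervals took 0.155% and 0.740% of the EHF tags, 28.9% of the H3K27ac tags and 5.80% of the H3K4me1 tags. The deposited score of an interval is the authors' tag count, scaled to 10000000 tags per library. Values in parentheses after a score, or after a score per kb of region, are exact 95% Poisson limits worked back from the tag count, and they cover counting error only. With 1 library for each mark, no value of a mark has a replicate. An interval that is missing from a list did not pass the caller's rules, and this does not show that the signal is absent. Positions of exons, introns and starts in hg19 were not used here, so intervals are given by window and not by gene.

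The chemokine windows were covered far more by H3K27ac than those of the feedback genes. H3K27ac regions took up 28.2% of the CXCL8 window, 18.9% of the CXCL cluster window and 17.1% of the CCL20 window. They took up 5.53% of the NFKBIA window and 2.74% of the TNFAIP3 window. The rest of the same chromosome stood at 1.76% for chromosome 4, 2.25% for chromosome 2, 1.86% for chromosome 14 and 2.40% for chromosome 6. The windows were thus 16.0-fold, 10.7-fold, 7.60-fold, 2.97-fold and 1.14-fold above their own chromosomes.

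Set beside all bins of the same size along the genome, the CXCL8 window was matched or passed by 188 of 38618 bins (0.487%) and the CXCL cluster window by 48 of 9955 (0.482%). The CCL20 window was matched or passed by 541 of 30888 bins (1.75%) and the NFKBIA window by 3639 of 30888 (11.8%). The TNFAIP3 window was matched or passed by 5954 of 25739 bins (23.1%). These bins include stretches with no gene, and 31.7% to 59.3% of them held no H3K27ac at all, whereas the windows were laid around named genes. In the 4 other settings tried, CXCL8 again had the highest share, and NFKBIA and TNFAIP3 had the lowest shares, in that order. The order of the CXCL cluster and CCL20 was not firm. With windows widened by 50 kb on each side, CCL20 had 18.2% and the CXCL cluster 15.7%.

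**Figure D2:**
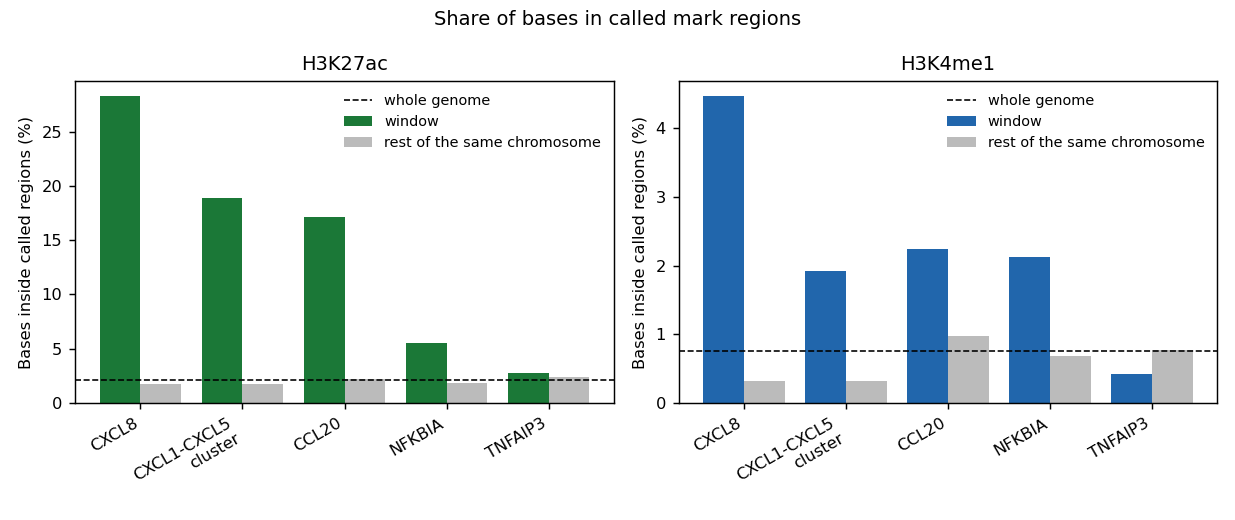
Percent of bases inside called H3K27ac regions (left panel) and H3K4me1 regions (right panel): the coloured bar is the window and the grey bar the rest of its chromosome, and the dashed line is the whole genome (2.10% and 0.764%). The 3 chemokine windows stand at 17.1% to 28.2% H3K27ac, and TNFAIP3 lies below its chromosome for H3K4me1.

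H3K4me1 was also highest in the CXCL8 window and lowest in the TNFAIP3 window. It covered 4.46% of the CXCL8 window, against 0.323% of the rest of chromosome 4, and 1.92% of the CXCL cluster window. The CCL20 window had 2.235%, against 0.979% of the rest of chromosome 2, and the NFKBIA window 2.13%, against 0.680% of the rest of chromosome 14. The TNFAIP3 window had 0.4175%, against 0.777% of the rest of chromosome 6, and its single region is 501 bp wide, the smallest width in the list. The order by H3K4me1 shifted with the setting. NFKBIA came first with windows widened by 50 kb (3.55%, against 3.25% for CXCL8) and again with regions at or above the median score of the list (2.13%, against 1.16% for CXCL8).

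**Figure D3:**
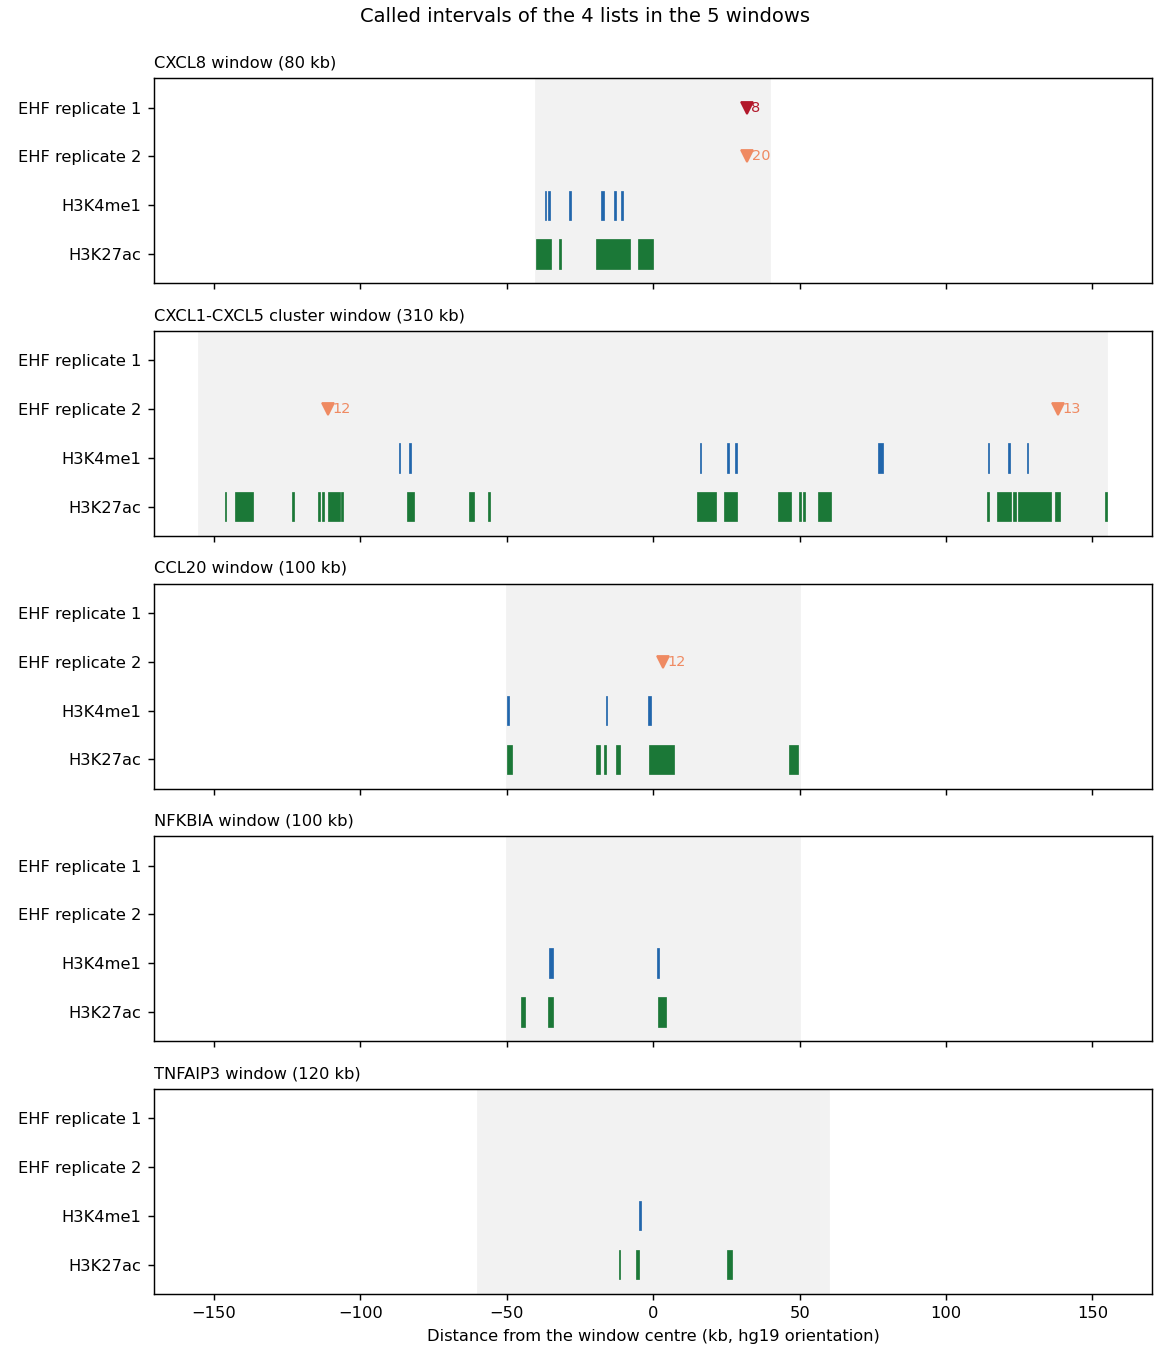
Called intervals in the 5 windows (grey), plotted by distance from the window centre in kb: triangles are EHF peaks with their deposited scores, and boxes are H3K4me1 and H3K27ac regions drawn to scale. H3K27ac fills broad blocks in the 3 chemokine windows, and the EHF site of the CXCL8 window, with scores of 8 and 20, stands apart from them.

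The 5 windows held 5.63 EHF peaks per Mb in replicate 2 and 1.41 in replicate 1, against 1.69 and 0.497 per Mb of the genome. These rates rest on 4 peaks and 1 peak in 0.71 Mb, and the genome rate includes stretches with no gene. A difference from the genome was not tested. All 5 peaks were in chemokine windows. At the genome's rate fewer than 1 peak would fall in the NFKBIA and TNFAIP3 windows together, so the lack of a peak there is no contrast. The 5 peaks mark 4 places. The only place called in both replicates was in the CXCL8 window. Replicate 1 had a peak at chr4:74641982-74642132 with a score of 8 (3.39 to 15.5). Replicate 2 had a peak at chr4:74642025-74642149 with a score of 20 (11.8 to 32.3). The peak centres were 30 bp apart. In the windows, 1 of 1 replicate 1 peaks met a replicate 2 peak, against 49.97% of the whole replicate 1 list, and 1 of 4 replicate 2 peaks met a replicate 1 peak, against 14.7% of the whole replicate 2 list.

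This shared EHF site scored low within one library and high within the other. In replicate 1, 92.5% of the peaks scored at least 8, and in replicate 2, 11.8% scored at least 20. Shared sites had a median score of 10 in replicate 1 and 15 in replicate 2, so the site was below that median in one and above it in the other. It lay outside both marks. The nearest H3K27ac regions ended 31907 bp below the replicate 1 peak and began 38171 bp above it, and the nearest H3K4me1 region was 42335 bp away. Of all 768 shared sites, 171 (22.3%) were outside H3K27ac, with a median gap of 12083 bp and quartiles of 2073 and 41260 bp.

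The other 3 EHF peaks were called in replicate 2 alone and sat inside H3K27ac. In the CXCL cluster window, the peak at chr4:74734005-74734129 scored 12 (5.70 to 21.8). Its centre was 306 bp from the lower edge of an H3K27ac region of 4106 bp. The peak at chr4:74983073-74983197 scored 13 (6.52 to 23.4) and lay near the middle of an H3K27ac region of 1721 bp. In the CCL20 window, the peak at chr2:228683358-228683482 scored 12 (5.70 to 21.8) and lay 56.1% of the way along an H3K27ac region of 8748 bp. The counting limits of these 3 scores overlap each other and the limits of the CXCL8 site in the same library. A score of 12 is at the median of the replicate 2 list.

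Of the replicate 2 peaks in the windows, 3 of 4 were in H3K27ac, against 63.8% of the whole list. The replicate 1 peak was not, against 60.8% of its list inside. Counted from the regions, 3 of 38 H3K27ac regions held an EHF peak (7.89%), against 9.82% of all H3K27ac regions. These shares are near those of the whole lists, and with so few peaks a difference was not detectable: the exact 95% interval of the 7.89% is 1.66% to 21.4%. None of the 4 EHF places overlapped an H3K4me1 region, and the nearest gap was 4012 bp, at the CCL20 peak. The share of the whole EHF lists in H3K4me1 was not computed, so this count is no trait of these places.

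The CXCL8 window held 4 H3K27ac regions, all on its lower side. The widest, at chr4:74590562-74602162, spanned 11601 bp with a score of 541, and 0.6005% of all H3K27ac regions were at least as wide. Its score per kb was 46.6 (44.0 to 49.4). The region at chr4:74568210-74575241, which crosses the lower window edge, had a higher score per kb of 55.2 (51.5 to 59.0) over 7032 bp. The region at chr4:74604821-74610074 had 32.2 (28.9 to 35.6) over 5254 bp. The counting limits of these 3 do not overlap, so the order of their densities is larger than counting error. The fourth region was 501 bp wide with a score of 8. The 39.9 kb at chr4:74610075-74650000 held no mark region, and this is where the shared EHF site lies.

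Most H3K4me1 regions of the CXCL8 window lay within its H3K27ac blocks. Of the 6 H3K4me1 regions in this window, 3 were inside the 11601 bp H3K27ac region and 2 inside the 7032 bp region. The remaining one, at chr4:74581352-74581989, was outside H3K27ac, 2960 bp from the nearest region. The highest score among the 6 was 18, at chr4:74592239-74593167 (929 bp), and the other scores were 9 to 12. The region at chr4:74604821-74610074 had no H3K4me1 region, and the nearest was 5174 bp away. H3K27ac ran on past the window, where 1 region is named after its value was seen. The region at chr4:74537614-74551175, 18826 bp below it, was 13562 bp wide with a score of 658.

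The CXCL cluster window held 22 H3K27ac regions, of which 8 were over 4 kb wide and 7 were at the smallest width of 501 bp. The widest, at chr4:74969696-74980901, spanned 11206 bp with a score of 536 and 47.8 per kb (45.1 to 50.7). The densest, at chr4:74869239-74873516, had 61.2 per kb (56.2 to 66.5) over 4278 bp, and 7.55% of the list was at least as dense. Its limits lie above those of each of the other regions of the window. The region at chr4:74859928-74866389 spanned 6462 bp with 45.7 per kb (42.2 to 49.3). The remaining 5 broad regions were 4106 to 6095 bp wide with scores of 152 to 197. The 14 narrower regions scored 7 to 55 and reached at most 30.2 per kb.

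The cluster was not evenly marked. A stretch of 70.7 kb at chr4:74789209-74859927 held no interval of any list. Above it, H3K27ac covered 29.1% of 140.1 kb, with 12 regions of which 6 were over 4 kb. Below it, H3K27ac covered 17.8% of 99.2 kb, with 10 regions of which 2 were over 4 kb. The score per covered kb was 43.2 above the stretch and 27.2 below it, and H3K4me1 covered 3.39% above and 1.21% below. On GRCh38.p14, CXCL6 is the next coding gene above CXCL8, and PF4V1 is the next below CXCL1. In the order of genes, CXCL1 is followed by PF4 and PPBP, then by CXCL5, CXCL3 and CXCL2. PF4 and PPBP encode platelet chemokines, and which gene lies in which stretch of hg19 was not analysed here.

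Of the 9 H3K4me1 regions in the cluster window, 7 overlapped H3K27ac. Their scores were 8 to 24. The widest and highest-scoring, at chr4:74921901-74923310, spanned 1410 bp with a score of 24 and stood alone, 16228 bp from the nearest H3K27ac region. It lay in a further stretch of 53.2 kb without H3K27ac. The other 8 were 501 to 696 bp wide. The EHF peak at chr4:74734005-74734129 had no H3K4me1 region nearer than 23883 bp.

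The CCL20 window held the densest H3K27ac region of the 5 windows. The region at chr2:228678515-228687262 spanned 8748 bp with a score of 678, the highest in the 5 windows. Its score per kb was 77.5 (73.6 to 81.6), and 3.27% of all H3K27ac regions were at least as dense. Next came the region at chr2:228622009-228631855, with 66.9 per kb (63.5 to 70.5) over 9847 bp and a score of 659. It crosses the lower window edge, and only 1855 bp of it lie in the window. The limits of both CCL20 regions lie above those of every CXCL8 region. The other 4 regions were 501 to 3140 bp wide with 19.9 to 31.2 per kb.

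An EHF peak of replicate 2 and an H3K4me1 region shared the densest CCL20 block. The H3K4me1 region at chr2:228678113-228679345, 1233 bp wide with a score of 32, ran past the lower edge of the block, and the EHF peak was 4012 bp further in. That score of 32 was the highest of the 21 H3K4me1 regions, and 9.92% of the H3K4me1 list scored at least as high. The H3K4me1 region at chr2:228663712-228664212 had the highest score per kb of the 21, at 33.9 (21.2 to 51.2). All 3 H3K4me1 regions of the window overlapped H3K27ac.

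The NFKBIA window held 3 H3K27ac regions and none over 4 kb, but all 3 had more score per kb than the list median of 27.9. The widest, at chr14:35871713-35874525, spanned 2813 bp with a score of 130 and 46.2 per kb (41.0 to 52.1). The region at chr14:35824985-35826183 had the highest score per kb, 46.7 (38.7 to 55.9), over 1199 bp. The third, at chr14:35834122-35835638, had 31.0 (25.3 to 37.8). The limits of the third include the list median, and those of the other 2 overlap the limits of the widest CXCL8 region. The 2 H3K4me1 regions each overlapped an H3K27ac region. One, at chr14:35834280-35835737, covered most of the third region with 1458 bp and a score of 30. The other, at chr14:35871457-35872129, ran past the lower edge of the widest region with a score of 16.

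No EHF peak was called in the NFKBIA window. One stood just outside and is named after its value was seen. The replicate 2 peak at chr14:35801395-35801519 lay 18482 bp below the window with a score of 29, and 3.55% of the replicate 2 list scored at least as high. It was inside the H3K27ac region at chr14:35800671-35803280 (score 127) and 162 bp from an H3K4me1 region. In GRCh38.p14 the nearest protein-coding gene on that side of NFKBIA is PSMA6, a proteasome subunit gene. Replicate 1 had no peak there or elsewhere within 50 kb of the window.

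The TNFAIP3 window was the most sparsely marked. Its 3 H3K27ac regions had scores of 9, 18 and 47. The largest, at chr6:138225192-138226849, spanned 1658 bp with 28.3 per kb (23.2 to 34.5), close to the list median of 27.9. The region at chr6:138194177-138195300 had 16.0 per kb (11.5 to 22.1), and that at chr6:138188319-138188819 had 18.0 per kb (10.7 to 27.6). The single H3K4me1 region, at chr6:138195182-138195682, scored 10 and ran past the upper edge of the middle region. No EHF peak was called in the window or within 50 kb of it.

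Broad H3K27ac regions were found in the chemokine windows. Over all 5 windows, 13 of 38 regions (34.2%) were over 4 kb, a size chosen after the widths were seen, against 8.73% of the whole list. All 13 were in chemokine windows, with 8 in the CXCL cluster, 3 in CXCL8 and 2 in CCL20, but the feedback windows held only 6 regions, too few to compare at that size. Widths are of whole regions, and 1 of the 2 in CCL20, of 9847 bp, had only 1855 bp in its window. By the list median of width the windows did not split this way: 2 of 3 NFKBIA regions and 1 of 3 TNFAIP3 regions were wider, beside 11 of 22 in the CXCL cluster, 4 of 6 in CCL20 and 3 of 4 in CXCL8. The median width of all 38 was 1587.5 bp, against 1370 bp in the list, and the median score per kb was 27.9 in the windows and 27.9 in the list. At the smallest width of 501 bp were 10 of 38 regions (26.3%), against 19.9% of the list, which lies within the exact 95% interval of 13.4% to 43.1%.

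**Figure D4:**
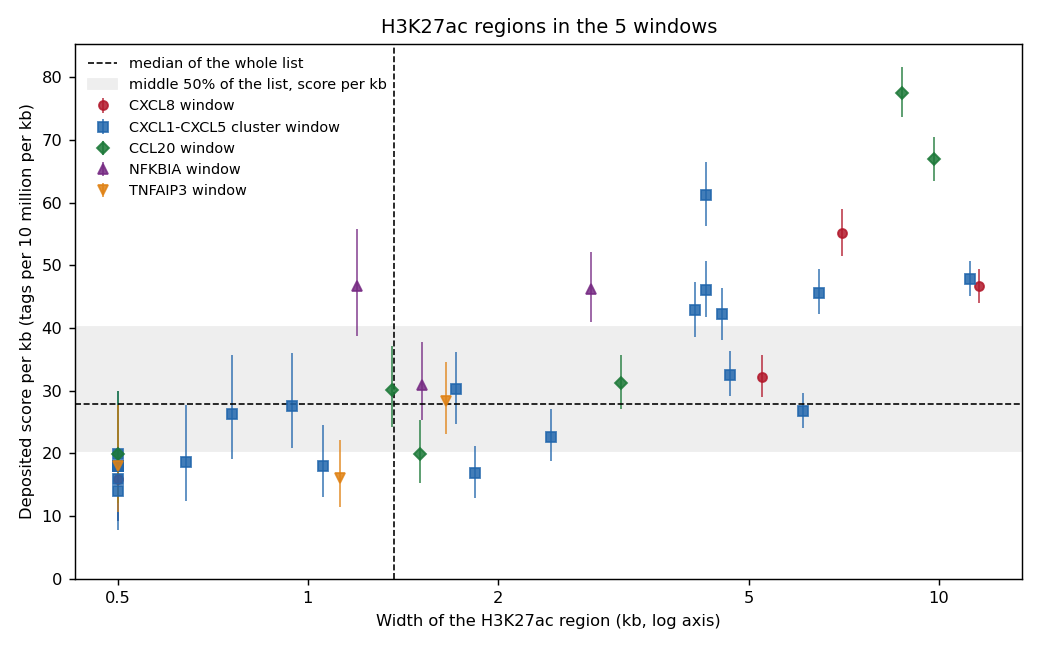
Each point is 1 of the 38 H3K27ac regions, plotted by width in kb (log axis) and deposited score per kb, with exact 95% Poisson limits as bars; dashed lines are the medians of the whole list and the grey band is its middle 50% by score per kb. The CCL20 regions at 66.9 and 77.5 per kb are the highest, and no NFKBIA or TNFAIP3 region is wider than 2.813 kb.

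H3K4me1 and H3K27ac met often from the side of H3K4me1. Of the 21 H3K4me1 regions in the windows, 18 overlapped H3K27ac (85.7%, exact 95% interval 63.7% to 97.0%), against 45.2% of the whole H3K4me1 list. The interval counts regions as independent, but several lie in the same H3K27ac region, so it is likely too narrow and is no test. From the other side the share was near the background, at 14 of 38 H3K27ac regions (36.8%), against 34.5% of the list. H3K27ac covered 15.1% of the bases of the 5 windows, against 2.10% of the genome, and the part of this in the overlap was not tested. Of the 18, 13 lay wholly inside the H3K27ac region (72.2%) and 5 ran past an edge, against 53.1% inside in the list, a difference that was not tested. In the CXCL8 and CXCL cluster windows all 12 that overlapped were inside, while 2 of 3 in the CCL20 window, both NFKBIA regions and the TNFAIP3 region ran past an edge. The H3K27ac regions they met were 944 to 11601 bp wide in the CXCL8 and CXCL cluster windows. In the NFKBIA and TNFAIP3 windows they were 1124 to 2813 bp wide. The CCL20 window did not follow this split by width. Its H3K27ac regions with an edge passed were 501 and 8748 bp wide, and the other was 9847 bp wide. The part of width in these positions was not tested.

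H3K27ac regions with H3K4me1 had a larger median width, with much overlap in range. Their median width was 4478 bp in the windows (14 regions), against 1129 bp for the 24 without H3K4me1. Regions with H3K4me1 ranged down to 501 bp and those without it up to 6095 bp. In the list the medians were 1938 bp with and 1134 bp without it. Of the 13 regions over 4 kb, 8 overlapped H3K4me1, against 70.9% of such regions in the list. Of the H3K4me1 regions, 12 of 21 (57.1%) had the smallest width of 501 bp, which is near the 53.3% of the list. In score per kb, 6 of 21 were above the list median. Their median was 20.5 per kb in the windows and 23.25 in the list.

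Joined across gaps of up to 12.5 kb, a rule added after the data were seen, the H3K27ac list gave 21620 stretches. The stretch that reached into the CXCL8 window ran over 82.3 kb at chr4:74527748-74610074 and joined 8 regions. It ranked 29 by length and 87 by summed score (1950), and 54.2% of its bases were inside called regions. It held 10 H3K4me1 regions and no EHF peak of either replicate. The stretches of the CXCL cluster were shorter. The one at chr4:74958855-74983893 was 25.04 kb long with a summed score of 785 and ranked 522 by score, and it held the EHF peak of score 13. The CCL20 stretch at chr2:228660517-228687262 was 26.7 kb long with a summed score of 759 and ranked 554 by score. The higher of the 2 NFKBIA stretches had a summed score of 130, which 24.7% of all stretches matched or passed. The higher of the 2 TNFAIP3 stretches had a summed score of 47, which 54.5% of all stretches matched or passed.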

How the data were processed

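Interval lists deposited for the 2 EHF, the H3K4me1 and the H3K27ac libraries of Calu-3 were read; both inputs were not used here. Bowtie 1.0.0, HOMER 1.2 and hg19 are named in the submitters' processing notes. Per the file headers, calling was done library by library at a false discovery rate of 0.01 and 4-fold over input, with peaks of fixed width for EHF and windows of 500 bp joined into regions for the marks. A 4-fold rule over the surrounding 10000 bp is also listed, and it removed EHF peaks but no mark regions. The deposited score is the authors' tag count per 10000000 tags, as a whole number. Joining windows sets the region widths, and the fold rules remove weak signal.

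Overlap meant 1 bp or more, and positions were counted from 1. Shares have exact (Clopper-Pearson) 95% intervals, which count regions as independent although they are neighbours in chosen windows. Chromosome lengths were taken to the furthest interval of any list. Named were the EHF peaks, and in each window and mark the widest region and that with the highest score per kb, up to 4 in full. Python 3.11.15, numpy 2.4.6, pandas 2.3.3, scipy 1.17.1, biopython 1.88 and matplotlib 3.10.9 were used, and the interval functions were tested on simulated data. No chance test was made. The members, windows and lists were chosen with earlier results of these data known. Whether the 2 EHF libraries came from separate cultures is not given.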

Additional observations from a re-analysis of the deposited data

How the results depend on the processing

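Of 38 alternative values, 23 stayed within 1.5 times of the count, or within the 95% binomial interval of the share, and 15 moved. For shares of bases that interval counts each base as independent and is far too narrow, so small shifts of these shares are among the 15. The number of EHF peaks, 5, became 3 with windows narrowed by 10 kb on each side, which left out the shared CXCL8 site and put 100% of the peaks in H3K27ac, against 60%. It was 1 to 4 when either EHF replicate was left out, with 0 to 75% of the peaks in H3K27ac. The 21 H3K4me1 regions became 34 with windows wider by 50 kb and 8 with scores at or above the list median, and the 38 H3K27ac regions became 21 with that score rule. Window bases in H3K27ac, 15.1%, were 13.8% in wider windows, 15.4% in narrower ones, 13.3% with the score rule and 15.6% with regions merged across 1000 bp. Window bases in H3K4me1, 2.03%, were 2.11% in narrower windows, 1.06% with the score rule and 2.11% with merged regions. By region centre, 7.89% of H3K27ac regions met H3K4me1, against 36.8%. This rule needs the centre of the H3K27ac region to lie in an H3K4me1 region, and 12 of those 21 were 501 bp wide. The share of the whole list under the centre rule is not given here, so the fall is no trait of the windows. Scores of 8 to 20 stand for few EHF tags, which limits what the EHF lists can show. No paired analysis was possible because only the EHF libraries carry replicate numbers and no fit between groups was made.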
